A study of Saccharomyces cerevisiae with 6 samples.

Results

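Of the genes measured on 6 yeast arrays, 57 encode proteins that repair DNA or signal its damage, and they are described here by pathway. They were taken from a fixed list of gene symbols covering excision, mismatch, recombination and translesion repair and the damage checkpoint. All 57 were found in the platform's probe annotation, with 76 of the 9275 probe sets other than controls. The K91A group (K91A 1, K91A 2 and K91A 3) came from Saccharomyces cerevisiae with an allele of histone H4 in which a lysine of the folded core is replaced by alanine. The WT group (WT 1, WT 2 and WT 3) came from a strain with WT histone H4. Both groups were grown in YPD, a rich glucose medium, to mid-log phase, and total RNA was hybridised to 1 array per sample. The strain background, the way the allele was introduced and the number of clones are not given in the sources used here.

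Cells meet DNA damage with enzymes specialised for each kind of lesion. Excision pathways remove damaged bases or short strands, mismatch repair corrects copying errors, recombination and end joining mend breaks, and translesion polymerases copy past lesions. The damage checkpoint senses single-stranded DNA and broken ends through the kinases Mec1 and Tel1 and passes the signal to the effector kinases Rad53 and Chk1, which halt the cell cycle. The nucleosome, of which histone H4 is a core part, must be opened and rebuilt around each repair site.

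The labels of 1 array, K91A 3, conflict: by title it is K91A and by description WT. It was placed by title, and its median intensity was 745, against 1828 to 3116.5 on the other 5 arrays. K91A 3 also had 51 empty cells, against 33 on each other array, and its deposited values carry more decimals. Whether it was processed differently is not given. The ratio of 5' to 3' signal of actin, a measure of RNA integrity and labelling, averaged 0.861 ± 0.0173 in K91A samples, against 0.196 ± 0.146 in WT samples (SD, n = 3 each). A two-sided exact permutation test gave p = 0.1, and no smaller p is possible with 3 samples a group. Within WT, WT 3 had a ratio of 0.365 and the other two had 0.110 and 0.114. The part of this difference in the results below was not tested. Some markers of mating type differed between the groups as well. All 6 markers of MATa cells were higher on every K91A array than on any WT array, with differences from 0.78 to 1.44, and their summed normalised intensity was 15380 to 15960 in K91A against 6284 to 7100 in WT. The pheromone gene MFA1 (1.40, limma adjusted p = 0.00387) and MFA2 (0.99, 0.00963) passed among the 3 bright enough to test. The 4 markers of alpha cells lay between the 84 and 99 percentile of every array and summed to 64550 to 70090 in K91A, against 60140 to 72390 in WT. Of these, MF(ALPHA)2 passed as higher (1.19, adjusted p = 0.0174), while STE3 (-0.58) and SAG1 (-0.30) had all K91A arrays below WT and did not pass. Of 8 haploid-specific genes, 5 had all K91A arrays below WT and 1 passed, GPA1 (-2.09, adjusted p = 0.00245), a G-protein subunit of the pheromone pathway. Of all probe sets tested, 23.7% had all K91A arrays above WT and 27.5% had them below. Limma called 15.4% of all probe sets tested higher and 14.8% lower. The share of haploid-specific genes called lower, 12.5%, was near that. No marker was at 0 on any array, and their part in the results on repair genes was not tested. Nothing in the labels says that replicates were separate cultures, so the spread behind the p-values is that between samples and may be technical. The small number of arrays limits the precision.

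Of the repair and checkpoint genes, MEC1, DDC1, TEL1, CHK1, RAD59, RAD54, SGS1 and DNL4 were higher in K91A, by 1.60 to 2.69 times, and none was called lower. Differences are given on the scale of log2(intensity + 16) after quantile normalization, K91A minus WT, and a gene passed when its limma p, adjusted over all probe sets tested, was under 0.05. The brightest probe set stood for a gene. Of the 57 genes, 42 cleared the filter that leaves out the dimmest 25% of probe sets. Of these 42, 8 were higher in K91A (19.0%) and 0 were lower by limma, with 11 and 1 at an unadjusted p under 0.05. Over all 6931 probe sets tested, 30.2% were called, 15.4% higher and 14.8% lower. The share of members that rose was near that of all probe sets. All K91A arrays lay above all WT arrays for 13 of the 42 genes and below them for 5, against 23.7% and 27.5% of all probe sets tested (51.1% in either direction). MEC1, DDC1 and RAD59 had a WT mean below the lowest mean tested (9.66), so they cleared the filter through their K91A arrays, and the counts over the 42 are no support for a shift of the list. Without the filter all 57 could be tested: 8 were higher and 0 lower, against 13.7% and 12.6% of all 9242 probe sets (26.3% in either direction). The topoisomerase gene TOP3 then passed (adjusted p = 0.0472) and RAD54 did not (0.0572), while the other 7 were among the calls in both fits.

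The median difference of the 57 genes was 0.23, that of the 42 tested was 0.23, and that of all probe sets tested was -0.07. In the values as deposited, without normalization, the medians were -0.37 for the 42 genes and -0.82 for all probe sets, and 0 members passed, with 1 at an unadjusted p under 0.05. Directions here are therefore relative to the bulk of transcripts on an array. In total RNA from whole cultures, more RNA per cell and a larger share of cells that express a gene cannot be told apart. With K91A 3 counted as WT, limma called 0 members, with 1 at an unadjusted p under 0.05, and 0 of all probe sets. Without K91A 3, 5 members passed: CHK1, DDC1, DNL4, MEC1 and RAD59.

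**Figure D1:**
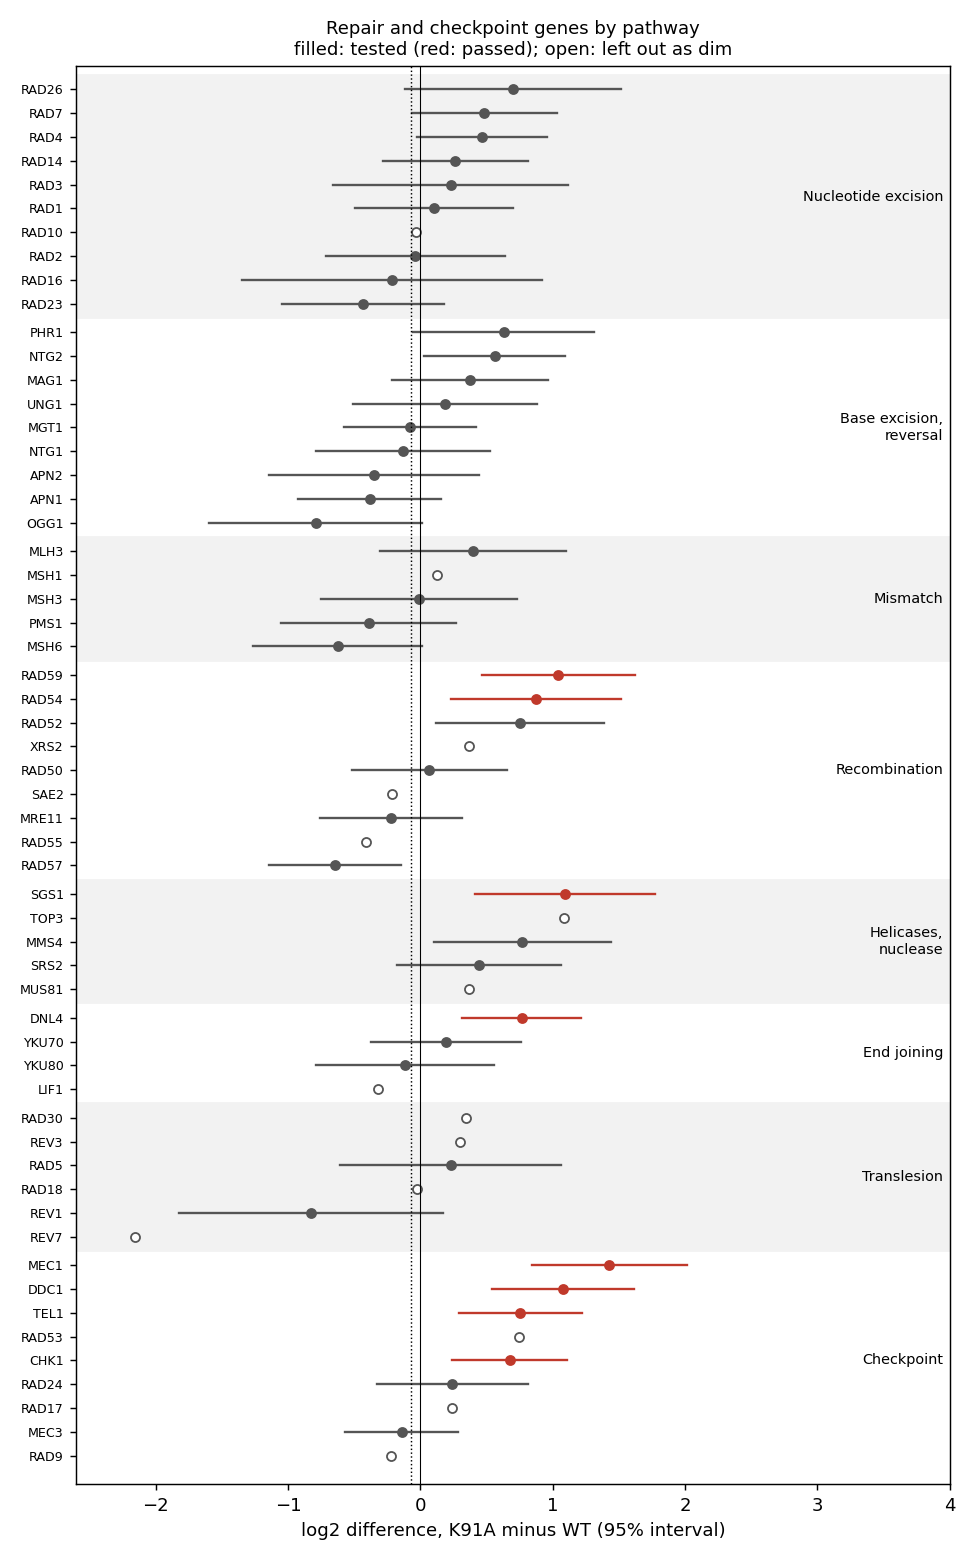
Log2 difference (K91A minus WT, n = 3 each) of the 57 genes by pathway, with the 95% interval from limma for the 42 tested genes. Red marks the 8 genes that passed, open circles the 15 genes left out as dim, and the dotted line the median of all probe sets tested (-0.07). The red points are 4 checkpoint genes, RAD59, RAD54, SGS1 and DNL4. The intervals of the mismatch genes all include 0.

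Among the 9 damage checkpoint genes, MEC1, DDC1, TEL1 and CHK1 were called higher. Fitted without the filter, so that all 9 were tested, 4 were higher and 0 lower, beside 13.7% and 12.6% of all probe sets, and the median difference was 0.67. With the filter, 6 were tested, of which MEC1 and DDC1 passed it through their K91A arrays. MEC1 encodes the homologue of human ATR, the kinase recruited to single-stranded DNA. Its log2 level was 10.44, 10.74 and 11.04 on K91A 1, 2 and 3, against 9.05, 9.43 and 9.46 on WT 1, 2 and 3. The groups were far apart, with the lowest K91A array well over the highest WT array. The difference was 1.43 (95% interval 0.84 to 2.02, limma adjusted p = 0.0081), a 2.69-fold higher signal. MEC1 was the one member whose call held when any 1 of the 6 arrays was left out (1.26 to 1.62, adjusted p 0.015 to 0.0402).

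TEL1 encodes the related kinase, the homologue of ATM, which acts at broken ends and in telomere maintenance. It stood at 11.61, 11.40 and 11.54 on the K91A arrays and at 10.86, 10.94 and 10.48 on WT arrays. The groups did not overlap, and WT 3 was the lowest array. The difference was 0.76 (SE 0.20, limma adjusted p = 0.0287). It was lost when K91A 1 was left out (adjusted p = 0.0789), as it was for K91A 3 (0.0538), WT 1 (0.0815), WT 2 (0.0721) and WT 3 (0.0631). It was also the member whose value depended most on gene length: with each array's trend on length removed, the difference was 0.24 (adjusted p = 0.509).

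DDC1, MEC3 and RAD17 encode the ring-shaped clamp that is loaded at damaged DNA and activates Mec1. DDC1 had 10.74, 10.26 and 10.80 on the K91A arrays, against 9.54, 9.54 and 9.48 on WT arrays. The WT arrays were almost level, and all K91A arrays lay above them. The difference was 1.08 (SE 0.23, limma adjusted p = 0.0148), and leaving out WT 1 (adjusted p = 0.0598) or WT 2 (0.0634) ended the call. MEC3 had 11.09, 11.06 and 11.07 on the K91A arrays and 11.37, 11.27 and 11.00 on WT arrays, a difference of -0.14 (adjusted p = 0.577). Its K91A arrays lay inside the WT range. RAD17, left out as dim, had 9.71, 9.77 and 9.40 against 9.30, 9.68 and 9.18 on WT, and these overlapped. RAD24, the gene for the loader of this clamp, differed by 0.24 (adjusted p = 0.471) with overlapping groups.

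The effector kinase gene CHK1 had 11.76, 12.05 and 11.71 on the K91A arrays and 11.04, 11.21 and 11.24 on WT arrays. All K91A arrays were above all WT arrays, and the difference was 0.67 (SE 0.18, limma adjusted p = 0.0329). Leaving out K91A 1 ended the call (adjusted p = 0.0666), as did WT 1 (0.127), WT 2 (0.107) and WT 3 (0.0576), and the value as deposited was -0.05. RAD53, the gene for the other effector kinase, had 10.10, 9.56 and 10.35 on the K91A arrays and 9.22, 9.20 and 9.37 on WT arrays. These groups did not overlap, but the gene lay just under the filter (mean 9.63). Fitted without the filter, RAD53 differed by 0.74 (SE 0.26) and did not pass (adjusted p = 0.0733). RAD9, the adaptor that brings Rad53 to Mec1, was also left out as dim, with 10.08, 9.54 and 8.56 on the K91A arrays and 9.74, 9.79 and 9.31 on WT arrays. K91A 3 was its lowest array and the groups overlapped.

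**Figure D2:**
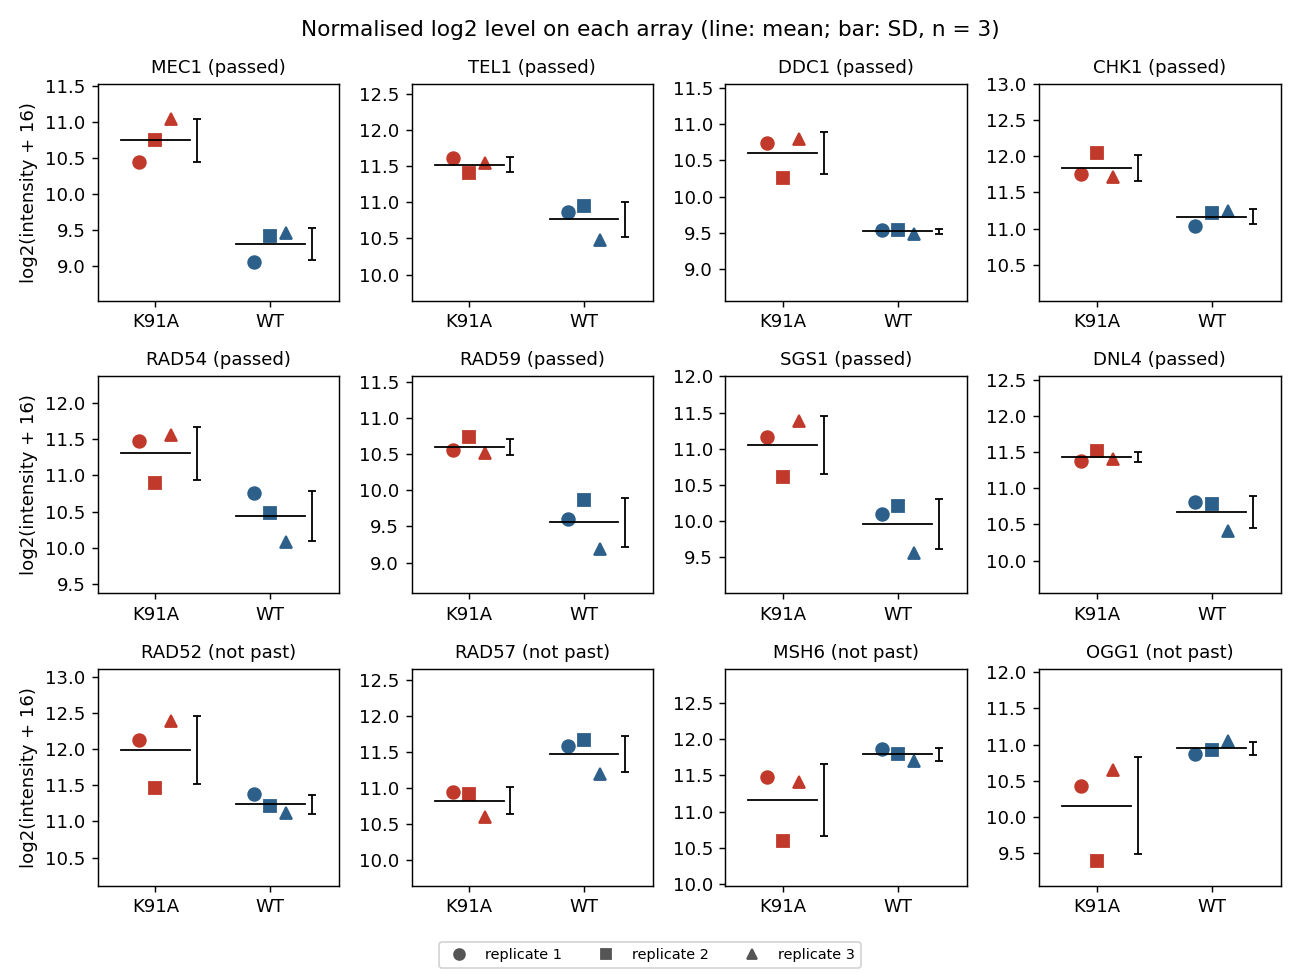
Normalised log2 level on each array of the 8 genes that passed and of 4 that did not (K91A left, WT right, the marker shape gives the replicate number). Lines are means and bars SDs (n = 3). The vertical span is the same in all panels. In the top 8 panels all K91A arrays lie above all WT arrays. RAD57, MSH6 and OGG1 have all K91A arrays below WT, and the OGG1 level of K91A 2 (9.39) lies apart from the other two.

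Of the 9 recombination genes, RAD59 and RAD54 were called higher. Without the filter 1 of the 9, RAD59, was higher and 0 lower, beside 13.7% and 12.6% of all probe sets, and the median difference over the 9 was 0.07. RAD59, a gene for a strand-annealing factor related to Rad52, had 10.55, 10.73 and 10.52 on the K91A arrays, against 9.61, 9.87 and 9.19 on WT arrays. The lowest K91A array lay above the highest WT array by about the range of the WT arrays, and WT 3 was the lowest. Its difference of 1.04 (SE 0.24, limma adjusted p = 0.02) was no longer called without K91A 1 (adjusted p = 0.051) or WT 1 (0.0698). At 717 bases it was among the shorter member genes, and with the length trend removed the difference was 1.28 (adjusted p = 0.0102).

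RAD54 encodes a motor protein of the SNF2 family that drives strand exchange and can remodel nucleosomes. It had 11.47, 10.89 and 11.56 on the K91A arrays and 10.76, 10.48 and 10.07 on WT arrays. K91A 2 came close to WT 1, although the groups did not overlap. The difference of 0.87 (SE 0.27) passed narrowly (limma adjusted p = 0.0496), and it did not pass without K91A 1 (0.123), K91A 3 (0.102), WT 1 (0.074), WT 2 (0.129) or WT 3 (0.125). RAD52, the central strand-annealing gene, had 12.12, 11.46 and 12.38 on the K91A arrays against 11.38, 11.22 and 11.11 on WT. The K91A arrays were all higher, and at 0.75 the difference missed the threshold (adjusted p = 0.0738). It passed without K91A 2 (1.04, adjusted p = 0.0129) and with array weights (0.85, adjusted p = 0.00883).

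RAD57 leaned the other way. This gene encodes a mediator that acts in a dimer with Rad55, and it had 10.95, 10.93 and 10.61 on the K91A arrays, against 11.58, 11.66 and 11.19 on WT arrays. All K91A arrays lay below WT, with a difference of -0.65 (SE 0.21) that did not pass (limma adjusted p = 0.0561). It passed without WT 3 (-0.79, adjusted p = 0.0462), with array weights (-0.75, adjusted p = 0.0108) and with the length trend removed (-0.67, adjusted p = 0.0449). RAD55 was left out as dim, at 9.32, 9.67 and 8.43 on the K91A arrays and 9.61, 9.55 and 9.50 on WT. The end-processing genes MRE11 (-0.22) and RAD50 (0.07) did not pass and overlapped between the groups. XRS2 (0.37) and SAE2 (-0.22) were too dim to be tested.

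By the brightest probe set of each, genes that act on recombination intermediates had positive differences in all 5 cases, from 0.37 to 1.09. Over all its probe sets, MMS4 was positive on 1 of 2 (lowest -0.38) and SRS2 on 5 of 6 (lowest -0.26). The median of all 9242 probe sets without the filter was -0.02, and the share of them with a positive difference was not counted. With the filter SGS1 passed, beside 15.4% higher and 14.8% lower of all probe sets. Without it 2 of the 5, SGS1 and TOP3, were higher and 0 lower, beside 13.7% and 12.6%. SGS1, the gene for the RecQ helicase homologous to human BLM, had 11.16, 10.60 and 11.38 on the K91A arrays and 10.10, 10.21 and 9.56 on WT arrays. The groups were separate, and the difference was 1.09 (SE 0.29, limma adjusted p = 0.0288). The SGS1 call was lost on leaving out K91A 1 (adjusted p = 0.0783), K91A 3 (0.0598), WT 1 (0.0759), WT 2 (0.0667) or WT 3 (0.0743). TOP3, the topoisomerase that works in one complex with Sgs1, had 10.20, 9.39 and 10.57 on the K91A arrays, against 8.93, 8.82 and 9.15 on WT, a difference of 1.09. The 2 genes thus had differences of the same size, TOP3 among the dim ones. MMS4, a subunit of a junction-cutting nuclease, differed by 0.77 (adjusted p = 0.0796) without overlap, and its partner MUS81 by 0.37 with overlap.

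End joining, which ligates broken ends without a template, had 1 call, DNL4, with the filter and without it. Of all probe sets, 15.4% were called higher with the filter and 13.7% without it. The median over the 4 end-joining genes was 0.04. DNL4, the DNA ligase of this pathway, had 11.38, 11.51 and 11.41 on the K91A arrays and 10.81, 10.79 and 10.41 on WT arrays. Its K91A arrays were nearly level and all above WT. The difference was 0.76 (SE 0.19, limma adjusted p = 0.0242), and it did not pass on leaving out K91A 1 (0.0568), WT 1 (0.0676), WT 2 (0.0758) or WT 3 (0.0542). The genes of the Ku dimer, which binds broken ends, differed by 0.20 (YKU70) and -0.12 (YKU80), and neither passed. LIF1, the cofactor of Dnl4, was dim at 9.12, 8.99 and 9.47 on the K91A arrays and 9.67, 9.68 and 9.19 on WT, with overlap.

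Nucleotide excision repair cuts out a strand around bulky or ultraviolet lesions. By limma it had 0 calls among 9 tested genes, beside 30.2% of all probe sets tested, and 0 at an unadjusted p under 0.05. Differences ran from -0.43 to 0.70, with a median of 0.17 over all 10 genes. RAD4, which recognises the lesion, was the 1 gene whose groups did not overlap, at 11.15, 11.63 and 11.17 on the K91A arrays and 10.92, 10.93 and 10.69 on WT (0.47, adjusted p = 0.129). RAD23, its partner, had 12.04, 11.39 and 12.20 on the K91A arrays, against 12.47, 12.35 and 12.12 on WT (-0.43, adjusted p = 0.239). K91A 1 lay slightly and K91A 2 clearly below the WT range. RAD26, which couples repair to transcription, had 0.70 (adjusted p = 0.164), and its WT arrays spread widely, from 8.76 to 10.03. Without WT 3, the lowest, it differed by 0.38. RAD7, which acts in untranscribed chromatin, differed by 0.48 (adjusted p = 0.154) and passed without K91A 2 (0.69, adjusted p = 0.0418) and with array weights (0.51, adjusted p = 0.0415). The helicase RAD3, the nucleases RAD1 and RAD2, the lesion binder RAD14 and the Rad7 partner RAD16 were between -0.21 and 0.26 with overlapping groups. RAD10, the Rad1 partner, was left out as dim.

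Base excision and direct reversal also had 0 calls by limma, among 9 tested genes, beside 30.2% of all probe sets tested. Of these 9 genes, 1 had an unadjusted p under 0.05, and their median was -0.08. NTG2, a glycosylase for oxidised pyrimidines, had 12.35, 12.18 and 12.54 on the K91A arrays and 11.99, 11.96 and 11.43 on WT. All K91A arrays were higher, and the difference of 0.56 did not pass (adjusted p = 0.1) and was 0.37 without WT 3. PHR1, the light-driven photolyase, had 10.41, 11.32 and 10.66 on the K91A arrays, against 10.39, 10.24 and 9.88 on WT, and K91A 1 nearly touched WT 1 (0.63, adjusted p = 0.138). Without K91A 2 the difference was 0.38. OGG1, the glycosylase for 8-oxoguanine, pointed down, at 10.43, 9.39 and 10.64 on the K91A arrays and 10.87, 10.92 and 11.05 on WT. K91A 2 was far below the others, and the difference of -0.79 did not pass (adjusted p = 0.118). Without K91A 2 it was -0.42 (adjusted p = 0.117). APN1, the main endonuclease at abasic sites, also had all K91A arrays below WT (-0.38, adjusted p = 0.241). The alkylation genes MAG1 (0.38) and MGT1 (-0.08), the uracil glycosylase UNG1 (0.19), NTG1 (-0.13) and APN2 (-0.35) overlapped.

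Mismatch repair had 0 calls among 4 tested genes by limma, beside 30.2% of all probe sets tested, and 0 at an unadjusted p under 0.05. The median over its 5 genes was -0.01. MSH6, which recognises single-base mismatches, had 11.49, 10.59 and 11.41 on the K91A arrays and 11.87, 11.80 and 11.70 on WT. All K91A arrays were lower, with a difference of -0.63 (adjusted p = 0.12). The difference was -0.35 without K91A 2 (adjusted p = 0.139) and -0.45 with array weights (0.0716), and it passed with the length trend removed (-0.92, adjusted p = 0.0329). PMS1 was likewise below WT on every K91A array (-0.39, adjusted p = 0.32). MSH3, which recognises small loops, had -0.01 and MLH3 0.40, both with overlap, and the mitochondrial MSH1 was dim.

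Translesion synthesis and postreplication repair had 4 of 6 genes among the dim probe sets. The 2 tested, RAD5 (0.23) and REV1 (-0.83), did not pass by limma, beside 30.2% of all probe sets called, and 0 had an unadjusted p under 0.05. REV1, a polymerase that also recruits others, had 11.10, 10.41 and 9.44 on the K91A arrays and 11.42, 11.22 and 10.79 on WT, with K91A 3 the lowest. REV7, a subunit of polymerase zeta, had the largest difference of any member in size, -2.16. Its levels were 8.88, 8.65 and 6.09 on the K91A arrays and 10.17, 10.49 and 9.42 on WT. The groups did not overlap, but K91A 3, at a deposited intensity of 12.03 against 484 to 2154 on the others, was by far the lowest. Fitted without the filter it did not pass (SE 0.73, adjusted p = 0.0661). RAD18, RAD30 and REV3, also dim, were between -0.02 and 0.34 with overlap.

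A set of 4 members had several probe sets, and these did not always give the same answer. MEC1 had 9, all with a positive difference (0.17 to 1.47, median 0.98), and on 6 of them all K91A arrays lay above WT. Without the filter 5 of the 9 passed. Of all probe sets, 13.7% were called higher without the filter and 15.4% with it. All K91A arrays lay above WT for 23.7% of those tested with the filter. Probe sets of the same gene were read on the same arrays and are not separate tests of it. SRS2, a helicase that strips recombination filaments, was represented by its brightest probe set, which differed by 0.44 and did not pass (adjusted p = 0.237). Of its 6 probe sets 2 passed, at 1.50 (adjusted p = 0.0177) and 1.27 (0.015), and the other 4 lay between -0.26 and 0.44. RAD50 was divided too, as its 2 bright probe sets were at 0.07 and 0.16, while 2 of its 4 dim ones passed without the filter, at 1.74 and 1.10. The second probe set of MMS4 was at -0.38, opposite to the first. Of these probe sets, 7 of MEC1, 4 of SRS2 and 4 of RAD50 have identifiers that mark probes which may match other transcripts. They include 4 of the 5 MEC1 probe sets, and all of the SRS2 and RAD50 ones, that passed without the filter. Where each probe set lies along its transcript is not given in the files.

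**Figure D3:**
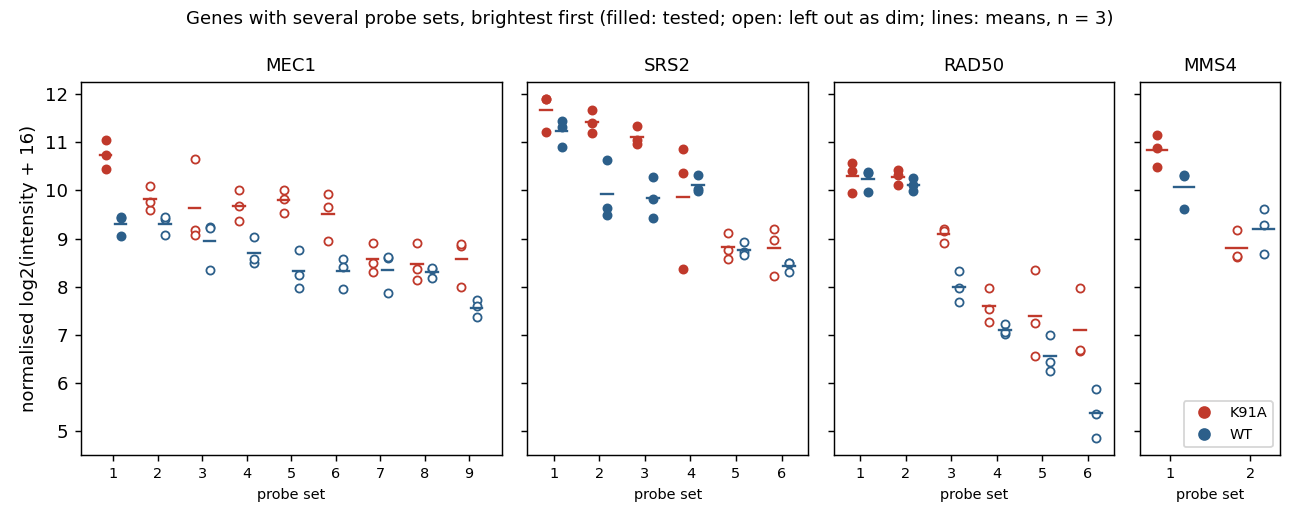
Normalised log2 level on each array for every probe set of the 4 genes with more than 1, brightest first (K91A left of WT, lines are means, n = 3). Filled points are probe sets that were tested and open points those left out as dim. All K91A arrays lie above WT on 6 of the 9 MEC1 probe sets, on 2 of the 6 SRS2 probe sets and on 3 of the 4 dim ones of RAD50, but not on the 2 bright ones of RAD50. The share of all probe sets tested is 23.7%.

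Subunits of one complex, and related genes, were then compared within each array by their ratio of deposited intensity + 16, without normalization. Because 16 was added, scaling of whole arrays can change this ratio, mainly for dim genes. In 7 of 21 pairs the groups did not overlap, below the 37.8% of all 1596 pairs of members. The pairs as a class were therefore no more divided than members at large. The log2 ratio of DDC1 over its clamp partner MEC3 was -0.31, -0.68 and -0.29 on the K91A arrays and -1.99, -2.00 and -1.44 on WT, a difference of 1.39. DDC1 over RAD17 differed by 0.80 and DNL4 over LIF1 by 0.86, both without overlap. Pairs without a called member were separated too: RAD4 over RAD23 (1.00), XRS2 over MRE11 (0.72) and NTG2 over NTG1 (0.62). RAD17, LIF1 and XRS2 were among the dim genes. For SGS1 over TOP3 the difference was -0.17, and for RAD54 over RAD52 it was 0.20, with overlapping groups. The largest, REV3 over REV7 (2.38), joins 2 dim genes, and within K91A it ranged from 0.05 on K91A 1 to 2.92 on K91A 3. The two-sided exact permutation p was 0.1 for each pair without overlap, the smallest possible with n = 3 each, and 0.3 when adjusted over the 21 pairs.

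**Figure D4:**
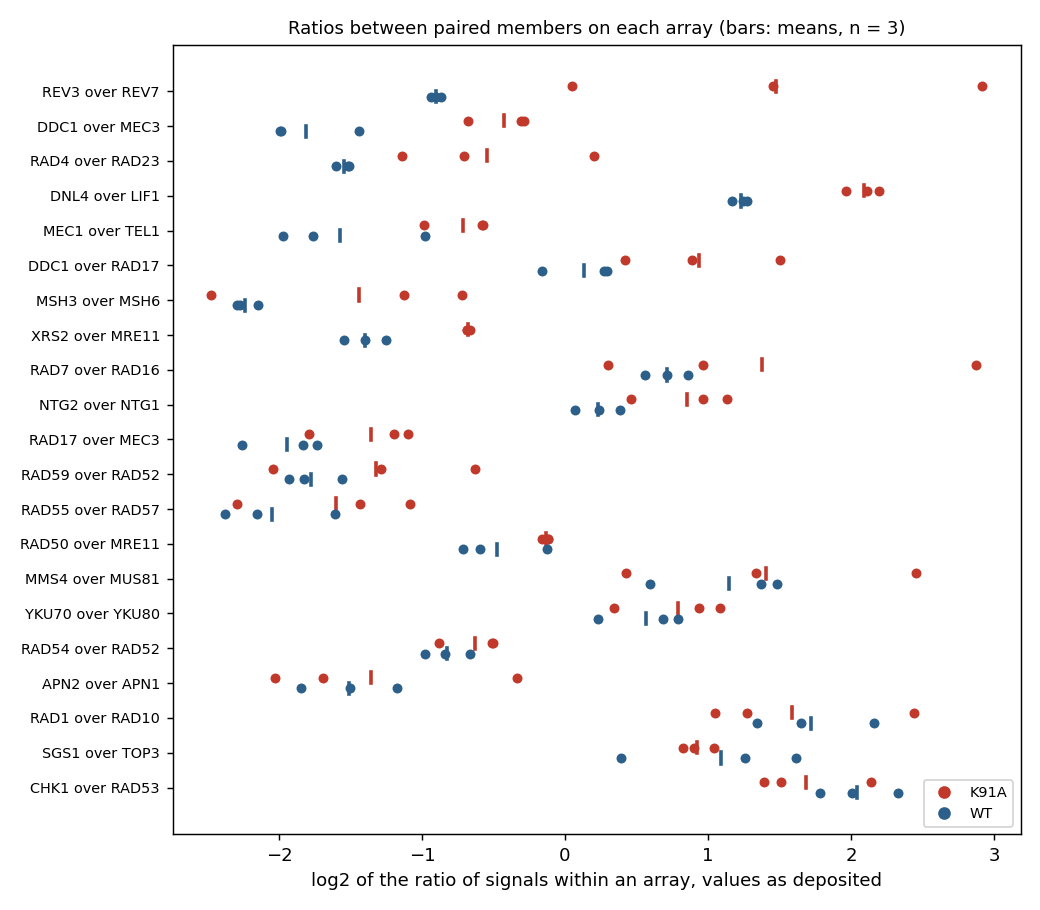
Log2 ratio of the deposited intensity + 16 of 2 members within each array for 21 pairs, sorted by the difference of the means (bars, n = 3). K91A is drawn above WT in each row. DDC1 over MEC3, DNL4 over LIF1 and DDC1 over RAD17 are among the 7 pairs separated between the groups, whereas SGS1 over TOP3 and RAD54 over RAD52 overlap.

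The arrays themselves differed in how they placed these genes. WT 3 was the lowest WT array for 35 of the 42 tested genes (83.3%), against 48.5% of all probe sets, and K91A 2 was the lowest K91A array for 24 (57.1%, against 45.4%). Of the 8 genes that passed, 6 had their lowest WT value on WT 3. Without WT 3 the median of the members tested was 0.13, 3 were called higher (DDC1, MEC1 and RAD59) and 1, RAD57, lower. The median SD within a group was 0.36 on the K91A arrays and 0.22 on WT arrays for the 42 genes, and 0.32 and 0.20 for all probe sets. Over the 57 genes, WT 1 and WT 2 correlated best of all array pairs (Pearson's r = 0.972 across genes, which are not independent replicates), and when averaged into 1 sample they left MEC1 as the 1 call.

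Length of the gene moved with the difference. The tested members were longer than other protein-coding genes, with a median of 2028 bases against 1254. Spearman's rho of length with the difference was 0.20 over the 42 members and 0.21 over 5013 protein-coding genes, points that share the same arrays. With each array's length trend removed, the median was 0.13 for the members and -0.03 for all protein-coding probe sets. CHK1, DDC1, MEC1 and RAD59 remained higher (MEC1 at 0.96, adjusted p = 0.0224), and MSH6 and RAD57 were called lower. The calls of TEL1, SGS1 (adjusted p = 0.0895), DNL4 (0.0642) and RAD54 (0.0906) ended. The ratio of 5' to 3' actin signal differed between the same arrays, as given above.

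**Figure D5:**
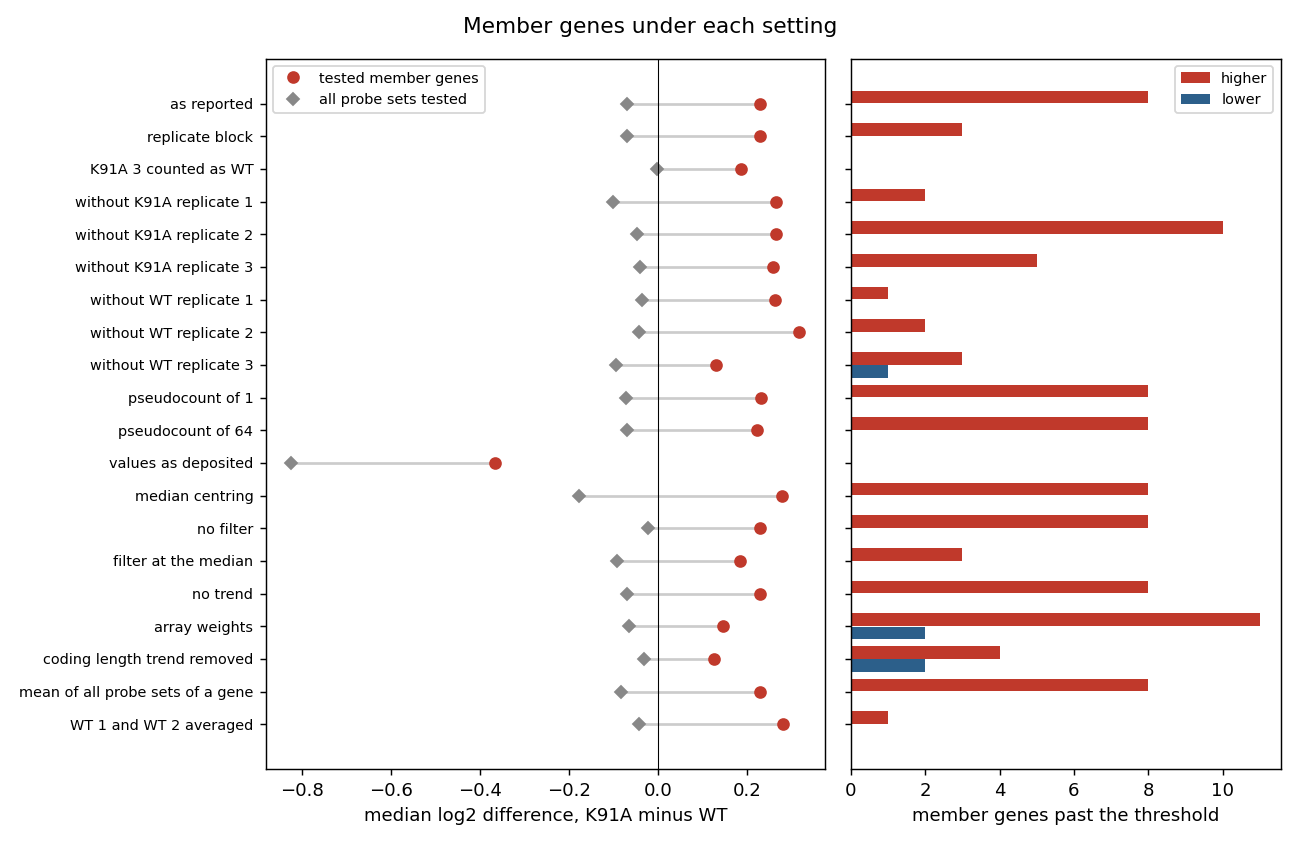
Median log2 difference (K91A minus WT) of the tested member genes and of all probe sets tested, and the number of members past the threshold, under each processing setting. The member median lies above the median of all probe sets in every setting shown, by 0.16 to 0.46, while the number of members called higher varies from 0 to 11. All settings draw on the same 6 arrays, and some members cleared the filter through their K91A arrays. The gap is therefore no support for a shift of the list.

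Of 87 other genes of the same pathways, 72 were tested. In K91A, 6 of them rose (8.33%) and 5 fell (6.94%), beside 15.4% and 14.8% of all probe sets tested, and the median was -0.18. MMS22 had a WT mean (9.43) and CTF18 a K91A mean (9.54) below the lowest mean tested (9.66). Each cleared the filter through its other group, so these counts are no support for a trait of the list. The difference of these genes from the members was not tested. The 10 with the smallest p included TTI1 (1.23), which belongs to a chaperone complex that stabilises Mec1 and Tel1, and MMS22 (1.12), a substrate adaptor of the Rtt101 ubiquitin ligase. TDP1 (1.20), which frees trapped topoisomerase from DNA, DEF1 (1.16), which acts on stalled RNA polymerase, RAD28 (1.00) and the SUMO-targeted ligase subunit SLX8 (0.88) also rose. Lower were TFB5 (-1.23), the smallest TFIIH subunit, the clamp-loader subunit RFC4 (-1.37), the DNA-binding factor ABF1 (-0.84) and the scaffold RTT107 (-1.13). The clamp-loader gene CTF18 (-1.21, limma adjusted p = 0.0472), named after its value was seen, was the fifth. By pathway, the other checkpoint genes had 2 higher and 3 lower among 23 tested (median 0.02), and the other recombination genes had 0 calls by limma among 15, with 1 at an unadjusted p under 0.05.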

How the data were processed

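Total RNA of 6 yeast samples was hybridised to single-sample oligonucleotide arrays. The authors deposited a linear intensity for each probe set on each array. The software, background correction and scaling behind it are not given in the sources used here. No detection calls came with the values. Gene names came from GEO's platform annotation, brought up to date by Entrez identifier with the RefSeq gene table of assembly R64, the source of gene lengths. Of 9275 probe sets other than the 60 controls, 6504 had 1 symbol, 328 several and 2443 none in that annotation. No member value was missing on any array.

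From the deposited intensity, log2(intensity + 16) was computed and arrays were quantile normalized. Left out were 33 probe sets lacking 2 values in K91A or in WT, and the 2311 (25%) with the lowest mean. The test on the other 6931 was limma (version 3.58.1, under R 4.3.3), using lmFit and moderated variances that follow mean intensity, with Benjamini-Hochberg adjustment over all of them. The procedure was tested on simulated data. Samples were grouped by title.

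Members, pathways, pairs and the list of other pathway genes were chosen with earlier results of these data known. Values on each array are given for members past the threshold and for checkpoint genes other than RAD24. They are also given for the 10 with the smallest p of those not past it, other than MMS4, RAD7 and RAD26. Some other members have them as well. Other pathway genes are named if past the threshold and among the 10 smallest p. CTF18, and dim members and dim other pathway genes that passed without the filter, are named besides.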

Additional observations from a re-analysis of the deposited data

How the results depend on the processing

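Settings were changed one at a time. Members called higher numbered 8 as reported. They were 3 with the replicate number as a block, 0 with K91A 3 counted as WT (where 0 of all probe sets were called), 0 in the values as deposited, 3 with the filter at the median (19 members tested), 4 with the length trend removed and 1 with WT 1 and WT 2 averaged, a setting chosen after seeing the data. Leaving out 1 array gave 1 to 10 higher, 0 to 1 lower, a member median of 0.13 to 0.32, and 841 to 2300 of all probe sets called, where 2091 were called with all arrays. Array weights raised the members called higher to 11, those called lower to 2 and all probe sets called to 3046. With the length trend removed 2 members were called lower. The values as deposited gave a member median of -0.37, 703 probe sets called and CHK1 at -0.0465, the 1 called gene whose sign turned. The filter at the median gave 1372 probe sets called and the averaged WT arrays 888. By construction, fewer probe sets were tested with the filter at the median and with the length trend removed. Fewer samples entered the fit with averaged WT arrays and each fit without 1 array. The cause of the changes was not tested. The replicate block ended the calls of CHK1, DNL4, RAD54, SGS1 and TEL1. The deviations of same-numbered arrays from their group means correlated at 0.17, -0.15 and -0.0052, and those of other pairs at -0.21 to 0.16. With 3 arrays a group, these values cannot tell whether the numbers mark pairs of samples. Pseudocounts of 1 and 64, no trend and averaging the probe sets of a gene gave the same 8 genes. Median centring gave 8 with MMS4 in place of CHK1. No detection calls came with these arrays, so for the 15 dim members it is unknown whether the signal lay above background.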
